A study of Mus musculus with 6 samples.

Results

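Melanosomes are lysosome-related organelles, in which pigment cells make and store melanin. Cargo such as the pigment enzymes reaches them from endosomes through the adaptor complex AP-3 and through BLOC-1, BLOC-2 and BLOC-3 (biogenesis of lysosome-related organelles complexes), and the HOPS complex tethers membranes for fusion. Rab GTPases mark the organelle and link it to myosin motors, which place it within the cell. Inherited loss of many of these genes gives the pale coat mutants of mice and Hermansky-Pudlak, Griscelli or Chediak-Higashi syndrome in people.

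The transcripts described here are those of 34 genes of this machinery, listed by function and not by their measured values. They were measured on 6 Affymetrix arrays of mouse tissue from embryonic day 13.5, labelled retinal pigment epithelium (RPE), which is the sheet of pigment cells that lines the back of the retina. The groups were 3 arrays of albino and 3 of control (pigmented) tissue, each array a biological replicate pooled from a few embryos of a litter. The labels name no mutated gene, allele or strain for either genotype and no agent given to them. The lens, the neural retina and tissue around the eye were dissected away, per the labels, although another label calls the material the whole eye region. Values are log2 expression values, so a difference of 1 is a doubling, and every difference below is albino minus pigmented. A gene was read by the probe set with the highest mean over the 6 arrays among those that the platform annotation assigns to that gene alone, provided that mean was at least 5. By this rule 33 of the 34 genes were measured, out of 12098 genes in all. Bloc1s1 was left out, because its probe set also names Rdh5. Mlph lay nearest the limit with a mean of 5.22, followed by Hps6 at 5.96, and no listed gene with a probe set of its own lay below it.

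The marker lists bear on what the pools held. Of all 12098 genes tested, 7835 lay higher in albino and 35.2% lower, and 3.38% lay lower without overlap. RPE markers averaged 8.44 to 8.84 on the 6 arrays, with 8 of 8 lower in albino (median -0.19) and 4 of the 8 without overlap. Mitf stood at a mean of 10.16 and Otx2 at 9.85. In contrast Rpe65 (3.23) and Lrat (3.02), which come on later in RPE, lay below the limit. Periocular mesenchyme markers averaged 11.19 to 11.45 and melanoblast markers 8.22 to 8.43, with Sox10 at a mean of 7.66. Of the 5 melanoblast markers 4 lay lower in albino (median -0.09), among them Ednrb (-0.29), while Erbb3 lay higher (0.35). The highest of them, Mlana (9.97), is also on the melanosome cargo list below. Melanoblasts carry the same machinery, and their share of a reading cannot be told apart from that of RPE. Skeletal muscle markers averaged 8.46 to 9.16 on albino and 6.94 to 7.89 on pigmented arrays, with 11 of 11 higher in albino and a median difference of 1.67. Neural retina markers lay lower in albino in 5 of 5 (median -0.50), and lens markers read 4.25 in albino replicate 3 against 7.57 to 8.08 on the other arrays. In pooled tissue, fewer cells of a type and less RNA per cell cannot be told apart. Mean levels of Y-linked transcripts were 7.06 to 7.99 in albino and 2.32 to 7.39 in pigmented pools. The part of tissue make-up in the results below was not tested.

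The members were also compared in their promoter sequence, which the choice of genes did not use. RefSeq promoter windows (GRCm38.p6, 250 bases before to 50 after a start site) were found for 26 of the 33 members, and Ap3s1, Bloc1s6, Rab38, Snapin, Vps11, Vps33b and Vps39 had none in the table used. The letters searched were CACGTG, the E-box read by MITF and its relatives TFEB and TFE3, the longer TCACGTGA, which contains it, and CATGTG, each on both strands. TCACGTGA stood in 5 of 26 members (19.2%), against 2.2% of 9763 tested genes with a window and 0.97% of all 32851 windows. CACGTG stood in 9 of 26 (34.6%), against 11.7% of these genes and 7.15% of all windows. CATGTG stood in 4 (15.4%), against 10.0% and 14.15%. The match to the letters is a description of the windows, and no binding was measured.

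The stretches below show where the letters lie in members of different complexes. They are the 5 members with TCACGTGA, in which it lies within 100 bases of the start site, and Mlph and Rab27a, the members of the Rab and motor group with CACGTG. Each is printed 5' to 3' on the strand of the gene, as the 100 bases before the start site (for Rab27a, the farthest 100 bases of the window), with the matched letters in capitals.
Vps16, HOPS core, chr2:130424220-130424319, strand +: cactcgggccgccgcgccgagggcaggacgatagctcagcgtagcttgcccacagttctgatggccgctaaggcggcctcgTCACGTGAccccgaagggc
Vps33a, HOPS core, chr5:123573016-123573115, strand -: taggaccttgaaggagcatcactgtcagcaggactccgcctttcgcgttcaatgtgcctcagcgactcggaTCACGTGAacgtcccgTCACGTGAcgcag
Hps3, BLOC-2, chr3:20035311-20035410, strand -: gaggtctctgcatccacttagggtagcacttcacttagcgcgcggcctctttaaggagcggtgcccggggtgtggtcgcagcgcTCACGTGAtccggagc
Bloc1s3, BLOC-1, chr7:19508371-19508470, strand -: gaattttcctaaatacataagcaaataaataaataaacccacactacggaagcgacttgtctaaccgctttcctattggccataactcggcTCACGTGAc
Atp7a, copper pump, chrX:106027124-106027223, strand +: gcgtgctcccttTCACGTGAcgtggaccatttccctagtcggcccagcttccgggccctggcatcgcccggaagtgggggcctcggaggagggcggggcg
Mlph, melanophilin, chr1:90915000-90915099, strand +: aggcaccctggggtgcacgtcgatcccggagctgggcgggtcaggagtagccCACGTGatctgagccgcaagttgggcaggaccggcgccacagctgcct
Rab27a, melanosome Rab, chr9:73063898-73063997, strand +: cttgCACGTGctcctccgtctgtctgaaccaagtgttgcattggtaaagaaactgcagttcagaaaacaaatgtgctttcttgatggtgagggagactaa

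Vps33a held TCACGTGA at 2 places. The members with TCACGTGA had a median difference of 0.08 between the genotypes and those with a window but without it 0.03. With CACGTG the median was -0.04 and 5 of 9 lay lower in albino, and without it the median was 0.05 and 5 of 17 lay lower. No relation of the letters to the genotype difference was tested.

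No member passed the test between the genotypes. Of the 33 members, 0 reached an adjusted p of 0.05 in limma, where 0.0% of all 23591 tested probe sets did, and the smallest adjusted p of a member was 0.923. At an unadjusted p under 0.05 stood 2 members, both higher in albino, which is 6.06% of members against 4.79% of all genes tested (3.47% higher and 1.31% lower). Members lower in albino numbered 11 of 33, or 33.3%, against 35.2% of all genes. Their median difference was 0.05 log2, and that of all genes was 0.04. After median centring of the arrays 21 of 33 lay lower, when 60.4% of all genes did, and after cyclic loess 15 of 33 and 48.6%. With the Y-linked level as a covariate 20 of 33 lay lower, with a member median of -0.03, when 56.2% of all genes did. Genes at an unadjusted p under 0.05 were 420 higher and 159 lower on the deposited scale. Median centring made them 298 higher and 540 lower, and cyclic loess 415 higher and 382 lower. All 33 differences were under 0.3 in size, the largest being 1.21-fold.

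**Figure D1:**
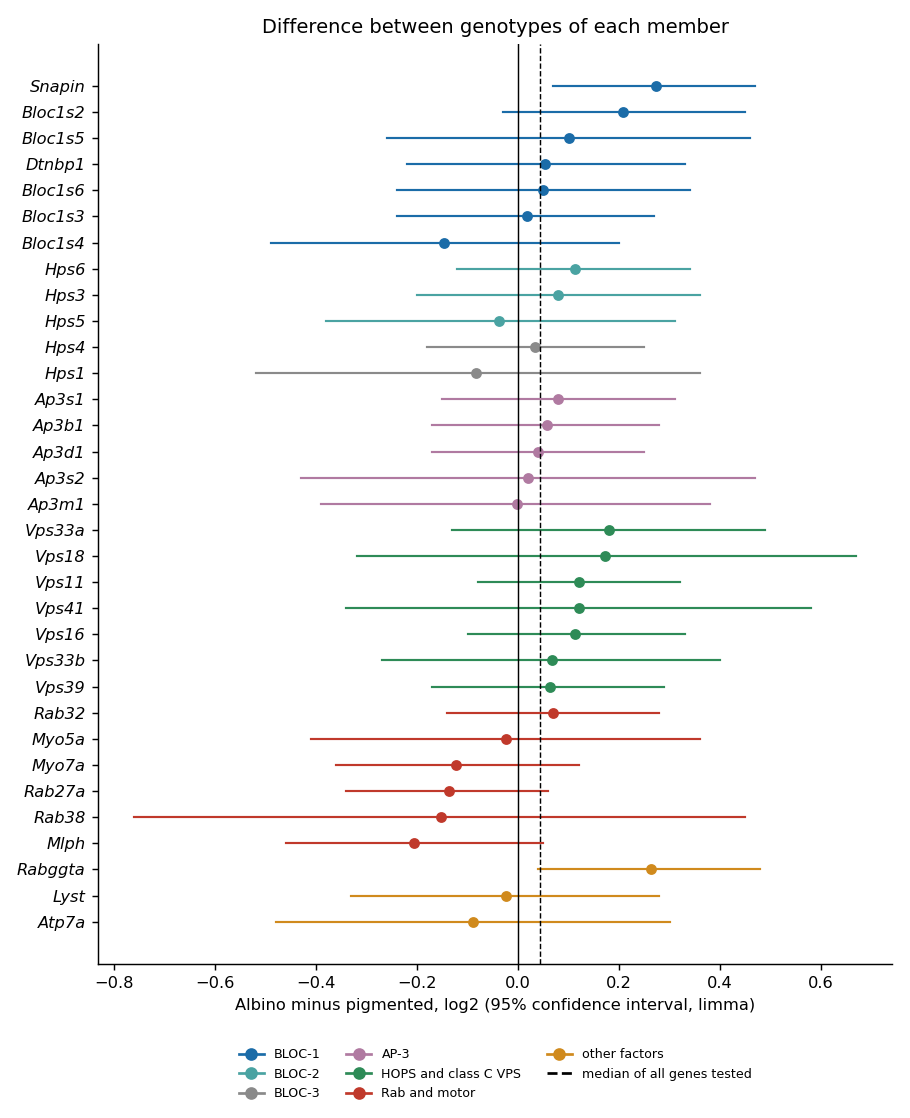
Albino minus pigmented difference in log2 units for the 33 measured members, grouped and coloured by complex. Points are limma estimates over 3 pools a genotype, bars are 95% confidence intervals, and the dashed line is the median of all genes tested (0.04). The intervals of 2 members, Snapin and Rabggta, exclude 0 before adjustment for the number of tests. The 7 HOPS and VPS members lie to the right of 0 (5 of 7 after median centring, 6 of 7 after cyclic loess). To the left lie 5 of the 6 Rab and motor members (6 of 6 after median centring), as do 35.2% of all genes (60.4% after median centring).

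Precision differed between members. Standard errors (SE) ran from 0.083 to 0.253 with a median of 0.116 in the fit without a block. The widest intervals reached from -0.76 (Rab38) to 0.67 (Vps18). With the replicate number as a block the median SE was 0.06.

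The 7 measured subunits of BLOC-1, the complex that carries cargo out of early endosomes, had a median difference of 0.05, with 6 higher and 1 lower in albino (3 and 4 after median centring and also with the Y-linked covariate, whose median was -0.03). Snapin, a subunit that also binds SNARE proteins, gave albino readings of 8.55, 8.45 and 8.50 against pigmented readings of 8.20, 8.25 and 8.23. All albino values lay above all pigmented ones, by a mean of 0.27 (SE 0.083, limma adjusted p = 0.923). Its other probe set gave -0.06, so the 2 readings of Snapin do not share a direction. Bloc1s2 gave 9.22, 9.04 and 9.29 against 9.0, 9.01 and 8.92, again without overlap but with albino replicate 2 only 0.03 above the highest pigmented array (difference 0.21, SE 0.101, limma adjusted p = 0.999). Snapin and Bloc1s2 are also subunits of BORC, the complex that positions lysosomes.

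Bloc1s4 was the BLOC-1 subunit that lay lower in albino, at 9.32, 9.08 and 9.12 against 9.58, 9.26 and 9.12. The groups overlapped and the difference of -0.15 (SE 0.145) came from a probe set ending in _s_at, a class whose probes can match several transcripts. The other Bloc1s4 probe set gave 0.04. Bloc1s5, the gene mutated in muted mice, differed by 0.10 (SE 0.149), Dtnbp1, which encodes dysbindin, by 0.05 (SE 0.116), Bloc1s6, which encodes pallidin, by 0.05 (SE 0.121), and Bloc1s3 by 0.02 (SE 0.107).

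BLOC-2 and BLOC-3 hold the subunits named for Hermansky-Pudlak syndrome. In BLOC-2, which directs endosomal carriers to maturing melanosomes, Hps6 gave 5.90, 6.05 and 6.09 against 5.92, 5.95 and 5.83, a difference of 0.11 (SE 0.096). Hps3 differed by 0.08 (SE 0.117) and Hps5 by -0.04 (SE 0.144), and in all 3 the groups overlapped. In BLOC-3, the exchange factor that activates Rab32 and Rab38, Hps4 differed by 0.03 (SE 0.09) and Hps1 by -0.08 (SE 0.184). The Hps1 value came from a probe set ending in _x_at, and its other tested probe set gave 0.11, with the opposite sign.

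AP-3 showed the smallest differences of the larger complexes. This adaptor sorts tyrosinase into carriers bound for melanosomes. Its 5 measured subunits lay between -0.003 (Ap3m1) and 0.08 (Ap3s1), with a median of 0.04, beside 0.04 for all genes, and 4 of the 5 lay below 0 after median centring and with the Y-linked covariate (medians -0.03 and -0.04). Ap3b1, the large subunit mutated in pearl mice, gave 9.22, 9.15 and 9.24 against 9.24, 9.03 and 9.17, and Ap3d1, mutated in mocha mice, 9.70, 9.65 and 9.68 against 9.63, 9.56 and 9.72. The genotypes overlapped in both. The intervals were -0.17 to 0.28 for Ap3b1 and -0.17 to 0.25 for Ap3d1, while those of Ap3m1 (-0.39 to 0.38) and Ap3s2 (-0.43 to 0.47) leave larger differences possible. The 3 other Ap3m1 probe sets gave 0.01 to 0.35, the last without overlap (7.16, 6.95 and 7.02 against 6.78, 6.63 and 6.68), and the 4 others of Ap3s2 gave -0.15 to 0.11.

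The HOPS and class C VPS genes lay higher in albino in 7 of 7 members, with a median of 0.12, where 7835 of all 12098 genes lay higher. They did so in 5 of 7 after median centring, 6 of 7 after cyclic loess and 5 of 7 with the Y-linked covariate. In these alternatives 60.4%, 48.6% and 56.2% of all genes lay lower. HOPS tethers late endosomes and lysosomes before fusion, with Vps11, Vps16, Vps18 and Vps33a as its core and Vps39 and Vps41 at its ends. Vps33b, a relative of Vps33a, works in a separate complex. Vps11 gave 7.18, 7.12 and 7.06 against 7.03, 6.98 and 6.99, without overlap (difference 0.12, SE 0.085). Vps33a, the gene mutated in buff mice, read 6.68, 6.71 and 6.63 against 6.31, 6.43 and 6.74, and pigmented replicate 3 lay above every albino array (difference 0.18, SE 0.129). Vps16 read 8.16, 8.06 and 8.08 against 8.07, 7.91 and 7.98 (difference 0.11, SE 0.09). Vps18 and Vps41 differed by 0.17 (SE 0.206) and 0.12 (SE 0.193), Vps33b by 0.07 (SE 0.141) and Vps39 by 0.06 (SE 0.097). Without albino replicate 1 the median was 0.008 and 4 of 7 lay higher: Vps18 turned to -0.03, Vps33b to -0.05 and Vps41 to -0.05. In that setting the median of all genes was -0.015 and 54.9% of them lay lower. No gene of this group stood at an unadjusted limma p under 0.05 in the main fit. Without pigmented replicate 3, 1 did, among 464 of 12098 genes.

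The Rab and motor group ran the other way, with 5 of 6 members lower in albino (6 of 6 after median centring). Of all genes 35.2% lay lower, and 60.4% after median centring. The median difference of the group was -0.13. Without pigmented replicate 1 it was 0.0, when the median of all genes was 0.1 and 25.1% of them lay lower. Rab27a, the GTPase that sits on mature melanosomes, gave 8.19, 8.25 and 8.27 in albino, and the pigmented pools 8.36, 8.34 and 8.42. Every albino value lay below every pigmented one, by a mean of -0.14 (SE 0.084, limma adjusted p = 0.999). The other Rab27a probe sets, all with means under the limit of 5, gave 0.017, 0.303 and 0.027. Mlph, which encodes melanophilin, the link from Rab27a to myosin Va in melanocytes, read 5.07, 5.12 and 5.16 against 5.46, 5.16 and 5.35, a difference of -0.21 (SE 0.107). Albino replicate 3 equalled pigmented replicate 2, and these levels are near the limit for measurement. Myo7a, the motor that holds melanosomes in the apical processes of RPE cells, read 7.43, 7.35 and 7.41 against 7.67, 7.43 and 7.46 (difference -0.12, SE 0.101), with pigmented replicate 1 above the rest. Myo5a, the myosin Va gene, differed by -0.02 (SE 0.159).

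Rab38 and Rab32 act side by side in bringing enzymes to melanosomes. Rab38 gave 10.10, 9.40 and 9.40 against 10.19, 9.60 and 9.57, so that each albino array lay below the pigmented array of its number while the groups overlapped (difference -0.15, SE 0.253). Its other probe set gave -0.24, and without pigmented replicate 1 the value turned to 0.05. Rab32 was the member of the group on the other side, at 7.19, 7.11 and 7.20 against 7.14, 7.14 and 7.01 (difference 0.07, SE 0.089).

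**Figure D2:**
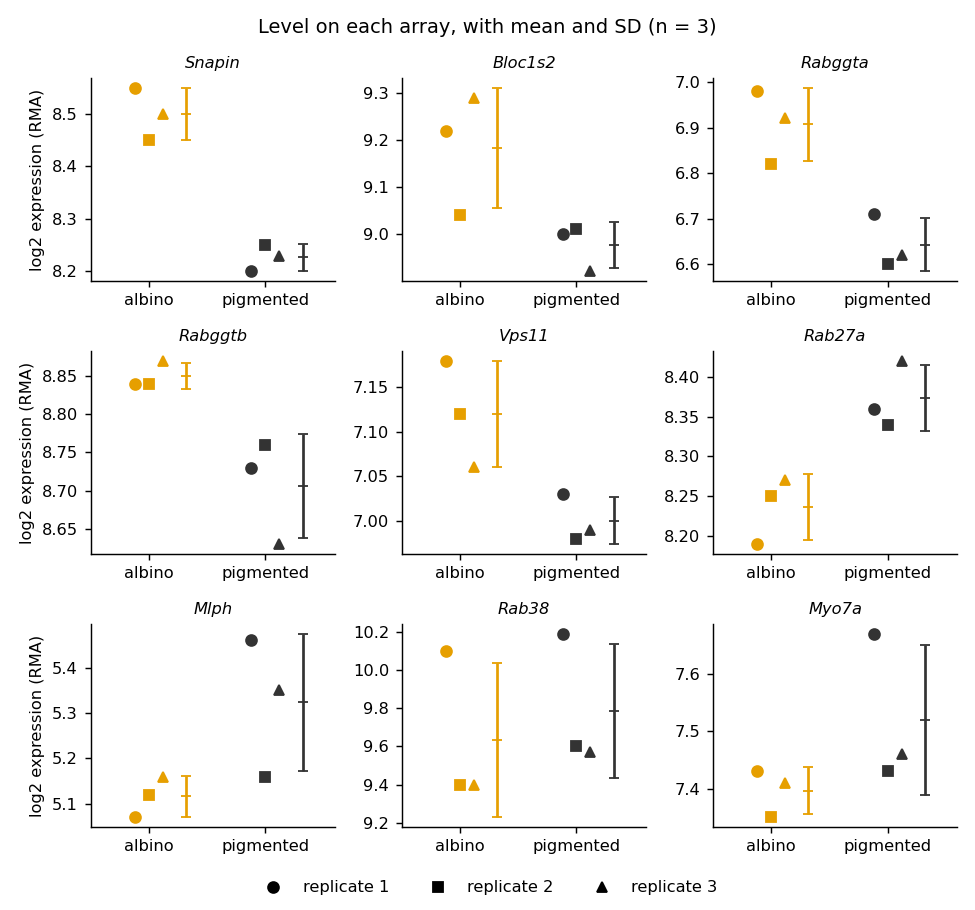
Log2 expression on each array for 8 members and for Rabggtb, with a separate vertical scale in each panel. Symbols mark the replicate number, and bars give the mean and SD of 3 pools. Snapin, Bloc1s2, Rabggta, Rabggtb and Vps11 lie higher on all albino arrays and Rab27a on all pigmented arrays, while for Rab38 both replicate 1 arrays stand above the other 4.

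Of the other factors, Rabggta differed most. It encodes the alpha subunit of the geranylgeranyl transferase that attaches the lipid anchor to Rab proteins, and its mutation gives gunmetal mice. Its albino readings were 6.98, 6.82 and 6.92 and its pigmented ones 6.71, 6.60 and 6.62, without overlap (difference 0.26, SE 0.091, limma adjusted p = 0.977). The beta subunit gene Rabggtb, named here after its values were seen, read 8.84, 8.84 and 8.87 against 8.73, 8.76 and 8.63, also without overlap (difference 0.14, SE 0.085, limma adjusted p = 0.999). It was the 1 gene of 21 measured Rab and motor partners (4.76%) that lay higher without overlap, against 7.97% of all genes. Lyst, mutated in beige mice and needed for lysosome size, differed by -0.02 (SE 0.128). Atp7a, the copper pump that loads tyrosinase and an X-linked gene, differed by -0.09 (SE 0.164), and its other tested probe set gave 0.08.

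Members whose genotypes did not overlap on the arrays were 4 with albino higher (Snapin, Bloc1s2, Vps11 and Rabggta), or 12.1%, against 7.97% of all genes. With albino lower there was 1 (Rab27a), or 3.03%, against 3.38% of all genes. The members' shares stood near those of all genes. Subtracting arrays that carry the same number gave values above 0 in all 3 cases for 10 members and below 0 for 6 members, against 30.7% and 13.0% of all genes.

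The groups with the highest and the lowest median were then set against each other within each array. This pair was picked from its values, so the contrast is a description with no test. HOPS here stands for all measured HOPS and class C VPS genes, Vps33b included. The HOPS mean minus the Rab and motor mean was -0.21, -0.25 and -0.33 for albino replicates 1, 2 and 3 and -0.54, -0.48 and -0.42 for the pigmented ones. Such a level is no measure of relative amount, since probe sets differ in response, but the shift of this contrast between the genotypes, 0.22, is free of the scaling of an array as a whole. It was 0.33, 0.22 and 0.09 between arrays of the same number. Measured against the median of all genes, HOPS stood at 0.08 and lay between 0.02 and 0.11 under all 15 alternative settings. The Rab and motor group stood at -0.17 and lay between -0.18 and -0.10. Median centring and the replicate blocks shift all genes alike or keep the estimates, so these settings could not move either value. Keeping dim probe sets left the medians of both groups as they were and moved only that of all genes, from 0.04 to 0.01. The value of 0.11 for HOPS came from that setting. Both groups were picked on these same arrays, so the ranges are no test of their position. Skeletal muscle markers differed between the same arrays by 1.80, 2.22 and 0.58 and RPE markers by -0.25, -0.31 and -0.11, in the order of the array numbers. The correlations between arrays do not separate numbers 2 and 3, so no order over the numbers is read from these differences. The part of tissue make-up in the contrast was not tested.

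**Figure D3:**
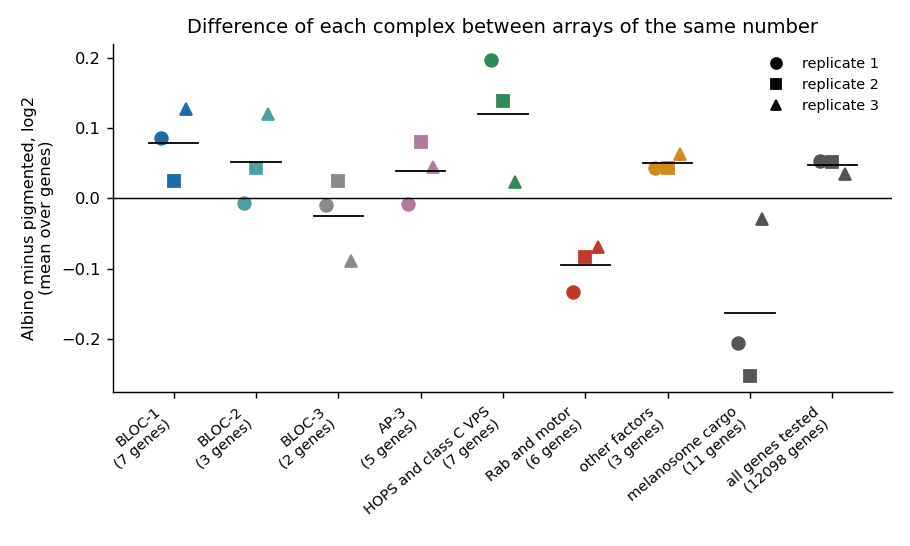
Albino minus pigmented difference between arrays of the same replicate number, in log2 units, as the mean over the genes of each complex, of the melanosome cargo list and of all genes tested. Symbols mark the replicate number and lines the mean of the 3 values. The Rab and motor group is below 0 at every number (-0.13, -0.08 and -0.07), as is melanosome cargo (-0.21, -0.25 and -0.03), and the HOPS group is above 0 (0.20, 0.14 and 0.02), all on the deposited scale, on which all genes average 0.05, 0.05 and 0.04.

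Of the genes that work with the machinery, 0 passed over all probe sets. Among 11 measured genes of the melanosome cargo list 10 lay lower in albino, against 35.2% of all genes, with a median of -0.18. The place of their proteins in the cell was not measured. RPE markers lay lower on the same arrays, as given above, and their part in the cargo values was not tested. The difference farthest from 0 on this list was that of the cystine transporter gene Slc7a11, named after its values were seen (-0.45, SE 0.406). Oca2, which encodes a melanosomal membrane transporter, differed by -0.24 (SE 0.102) and Mlana, a melanosome membrane protein gene, by -0.26 (SE 0.113), both without overlap, which is 18.2% of cargo genes against 3.38% of all genes. The enzyme genes Tyr (-0.19), Tyrp1 (-0.24) and Dct (-0.08) and the fibril gene Pmel (-0.09) lay on the same side. Among 21 Rab and motor partners 11 lay lower and 10 higher (median -0.03). Myrip, which joins Rab27a to Myo7a in RPE cells, differed by -0.09 (SE 0.145), and Chm, the Rab escort protein gene, by -0.13 (SE 0.119), both named after their values were seen. The partners with the smallest p were Myo5b (0.54, SE 0.189), a relative of Myo5a that moves recycling endosomes, and Rilp (-0.21, SE 0.111), an effector of Rab7. Among 21 sorting and fusion partners 15 lay higher and 6 lower (median 0.04), the latter 28.6% against 35.2% of all genes. Ap1s2, of the AP-1 adaptor that also supplies melanosomes, was -0.27 (SE 0.094), without overlap, but -0.04 as the mean of its probe sets. It was the 1 gene of these 21 (4.76%) that lay lower without overlap, against 3.38% of all genes. The BORC subunit gene Borcs6 was 0.19 (SE 0.117).

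Replicate 1 stood apart from the other arrays in many members. In 21 of 33 members (63.6%) the replicate 1 array was the highest of its genotype in both genotypes, as in 60.2% of all genes. The median gap of replicate 1 to the other arrays was 0.165 in size, against 0.083 for the genotype difference. Over all genes these medians were 0.215 and 0.087. Rab38 stood 0.70 above its other albino arrays and 0.60 above its other pigmented arrays, Vps41 by 0.50 and 0.46, and Ap3s2 by 0.39 and 0.52, while Snapin (0.08 and -0.04) and Rab27a (-0.07 and -0.02) showed almost no gap. The second probe set of Ap3b1 went the other way on these arrays, at 7.47 and 7.09 on the replicate 1 arrays and 8.68 to 8.90 on the other 4. Bacterial hybridisation controls (BioB, BioC and BioDn) read 8.27 and 8.67 on the replicate 1 arrays and 10.52 to 10.87 on the others. The 3' minus 5' reading of Actb, a measure of RNA length, was 1.04 and 1.35 against 0.86 to 1.01. The part of these measures in the replicate gap was not tested.

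**Figure D4:**
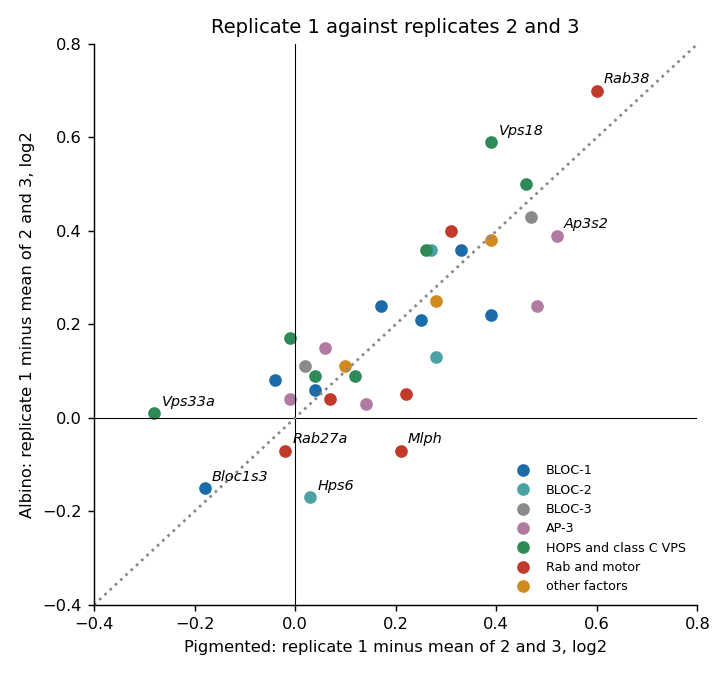
Level on the replicate 1 array minus the mean of replicates 2 and 3, in log2 units, in pigmented pools (horizontal axis) and albino pools (vertical axis), for the 33 members. The dotted line marks equal gaps. Most members lie above 0 on both axes near that line, with Rab38 farthest out at 0.60 and 0.70, and Rab27a, Bloc1s3, Hps6 and Vps33a lie near or below 0 on an axis.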

How the data were processed

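Per the submitters' processing notes, the authors made the deposited log2 values with Affymetrix Expression Console 1.1 and RMA. RMA usually ends with quantile normalization, but here array medians ran from 5.19 to 5.22 and upper quartiles from 7.38 to 7.55, so 2 other scalings were tried. Those medians and quartiles are over all probe sets. Median centring and cyclic loess were computed on the tested probe sets only, which are those other than controls with a mean of at least 5. Array batches and the genome build were not given in the sources used here, and the number of arrays limits the precision.

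Of 45101 probe sets, 34945 name 1 gene in the platform annotation, 932 several and 9160 none, and 34754 were matched by Entrez ID to a GRCm38.p6 gene table. Without 64 control probe sets and those with a mean under 5, 23591 were tested in R 4.3.3 with limma 3.58.1 (two-sided, no replicate block), p-values being adjusted by Benjamini-Hochberg over all of them. The script was tested on simulated data. Deviations from the genotype means correlated at 0.863, 0.687 and 0.448 between same-numbered arrays, all over 0.1, so the numbers were treated as pairs in an alternative. No label says what they share, and albino 2 with pigmented 3 (0.693) and albino 3 with pigmented 2 (0.546) correlated higher than 2 with 2 and 3 with 3, so the values set replicate 1 apart and do not separate numbers 2 and 3. All members are named, from each partner list the 2 genes with the smallest p, and also Tyr, Tyrp1, Dct and Pmel. The members, lists and tests were chosen with earlier results of these data known. Marker lists not described in the report had median differences of 0.12 (macrophage), 0.18 (erythroid), 0.06 (endothelial) and -0.12 (neuronal).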

Additional observations from a re-analysis of the deposited data

How the results depend on the processing

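Of the probe sets and of the members, 0 passed under each of the 15 alternatives, and the smallest adjusted p of a member was 0.109 (Snapin, when replicate 1 was set against the rest as a block). With the replicate block 0 of 23591 passed, and 3 members in place of 2 stood at an unadjusted p under 0.05, among 2043 of 12098 genes in place of 579. The block changed no call. The 11 members lower in albino became 21 after median centring and 20 with the Y-linked covariate. With 1 array left out they became 5 to 19, namely 5 without pigmented replicate 1, 7 without albino replicate 2 and 19 without albino replicate 1. Of all genes 25.1%, 28.8% and 54.9% lay lower in these settings, in that order. Median centring moved the median of all genes from 0.04 to -0.03, and the share of all genes lower in albino from 35.2% to 60.4%. The HOPS median was 0.008 to 0.155 over arrays left out, the lowest without albino replicate 1, where that of all genes was -0.015. The Rab and motor median was -0.16 to 0.0 over arrays left out. It was 0.0 without pigmented replicate 1, where that of all genes was 0.1. Of 33 members 12 kept their sign in every alternative, among them Snapin (0.11 to 0.30), Rabggta (0.19 to 0.31), Bloc1s2 (0.13 to 0.28), Vps11 (0.05 to 0.15), Rab27a (-0.21 to -0.11), Mlph (-0.34 to -0.12) and Myo7a (-0.22 to -0.05). The replicate blocks and the setting that kept dim probe sets leave each member's main estimate as it was, so no sign could turn there. For a member with 1 tested probe set, the mean of its probe sets was fixed as well. After median centring, the sign turned for Bloc1s3 (-0.057), Bloc1s6 (-0.023), Dtnbp1 (-0.02), Hps4 (-0.04), Ap3b1 (-0.017), Ap3d1 (-0.033), Ap3s2 (-0.053), Vps33b (-0.007), Vps39 (-0.01) and Rab32 (-0.003). After cyclic loess, the sign turned for Bloc1s3 (-0.033), Hps4 (-0.019) and Ap3s2 (-0.045), and Vps39 lay just below 0 at a value that rounds to 0.0. With the mean of a gene's probe sets, the sign turned for Hps1 (0.013), Ap3m1 (0.139) and Ap3s2 (-0.001). Without _x_at and _s_at probe sets, the sign turned for Bloc1s4 (0.037) and Hps1 (0.11). With the Y-linked covariate, the sign turned for Bloc1s5 (-0.031), Bloc1s6 (-0.072), Dtnbp1 (-0.035), Hps4 (-0.012), Ap3b1 (-0.04), Ap3d1 (-0.006), Ap3s2 (-0.132), Vps33b (-0.025) and Vps41 (-0.057). With both replicate 1 arrays left out, the sign turned for Ap3m1 (0.075). With 1 array left out at a time, the sign turned at least once for Bloc1s5 (-0.018 to 0.208), Bloc1s6 (-0.032 to 0.108), Dtnbp1 (-0.017 to 0.135), Hps4 (-0.005 to 0.065), Ap3s2 (-0.11 to 0.195), Vps18 (-0.025 to 0.303), Vps33b (-0.053 to 0.155), Vps41 (-0.047 to 0.272), Hps5 (-0.157 to 0.055), Ap3m1 (-0.103 to 0.157), Myo5a (-0.158 to 0.08), Lyst (-0.107 to 0.068), Bloc1s3 (-0.045 to 0.08), Hps1 (-0.227 to 0.073), Rab38 (-0.387 to 0.048), Atp7a (-0.217 to 0.042), Pmel (-0.167 to 0.013) and Ap3b1 (-0.002 to 0.103). Median centring shifts all genes alike, so it turned only members whose main difference lay just above 0. The causes of the other turns were not tested. The median SE of a member was 0.116 without a block and 0.06 with the replicate block, so the precision depends on the fit. With replicate 1 set against the rest, 6 of 33 members stood at an unadjusted limma p under 0.05, among 2440 of 12098 genes.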
